A study of Homo sapiens with 156 samples.

Results

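The first 2 days of decitabine treatment were examined in MV411, a human acute myeloid leukemia cell line with a rearranged KMT2A gene. The libraries were chosen by their labels. They are 4 libraries of cells given 400 nM decitabine (DAC), 2 at day 1 and 2 at day 2, and 4 libraries of cells given the solvent DMSO with no compound (0 nM), again 2 at each day. These 8 libraries are part of 156 in the study, which treated 3 leukemia lines with DNMT1 inhibitors, and of 52 from MV411. Cells of all groups were plated 24 h before treatment, and the labels name no other agent or engineered change. A further 4 libraries of MV411 given 400 nM GSK032 (GSK3685032), an inhibitor of DNMT1, for 1 or 2 days, and 8 libraries of DAC or DMSO at days 4 and 6, were used only for direct comparison. MV411 is 1 cell line grown in culture, and nothing in the labels says that libraries of a group came from separate cultures. The p-values therefore measure the spread between these libraries, which may be technical. Comparisons over both days fit a shared effect for the days, so a difference of the effect between the days also counts as spread there.

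DNMT1 copies methyl groups at CG dinucleotides from the parental strand onto the daughter strand after each round of DNA replication. Decitabine is a cytosine analog that is phosphorylated in the cell, built into DNA and then traps DNMT1 in a covalent complex, so methylation is lost as cells divide and protein adducts remain on DNA. Genes of the germ line are held silent by promoter methylation in most somatic cells, and decitabine is widely known for switching them on, while DNA adducts are known to activate p53.

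RNA levels were deposited as FPKM (fragment counts divided by transcript length and by sequencing depth) for 59939 genes. A gene was tested where at least 2 of the 8 libraries held at least 1 FPKM, which left 16430 genes. Changes are differences of log2(FPKM + 0.5), a scale that understates the change of genes near 0. A gene is called where the adjusted p of limma, by Benjamini and Hochberg over all genes tested, is below 0.05 and the log2 change is at least 1 in size, and standard errors (SE) are those of the fit. The scale of the 8 libraries, estimated from low values of genes with 1 transcript, was 45.3 to 84.3 M fragments. All 12 myeloid markers, among them PTPRC, CD33, SPI1 and FLT3, averaged at least 1 FPKM, and their sum was 1940 to 2380 FPKM in DAC libraries and 1930 to 2470 FPKM in DMSO libraries. None of 11 T cell, 8 erythroid or 9 fibroblast markers reached a mean of 1 FPKM, and CD2, TRBC1, HBB, AHSP and POSTN were listed at 0 in all 8 libraries. Of 9 B cell markers 2 did, with MS4A1 at 0, and of 10 epithelial markers 3 did, with KRT19 at 0. The sums of 3 lists were nonetheless higher in DAC libraries without overlap. The B cell sum was 6.38 to 9.77 FPKM in DAC libraries and 3.49 to 4.67 FPKM in DMSO libraries. The epithelial sum was 18.2 to 27.3 FPKM in DAC libraries and 12.5 to 15.0 FPKM in DMSO libraries. The T cell sum was 2.01 to 3.13 FPKM in DAC libraries and 1.03 to 1.4 FPKM in DMSO libraries. Whether this has a part in the results was not tested.

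One library stood apart. On the first principal component, which held 25.3% of the variance, DAC libraries lay between 6.49 and 48.32 and DMSO libraries between -38.87 and -18.74. On the second, with 18.6%, the libraries numbered replicate 1 lay between 7.54 and 42.4 and those numbered replicate 2 between -35.48 and -10.91. The replicate numbers were thus separated without overlap on that component. On the third, with 14.4%, DMSO day 1 replicate 2 lay at 50.91 while the other 7 lay between -21.19 and 8.35. The median absolute log2 difference between the replicates of a group was 0.163 in DAC day 1, 0.139 in DAC day 2, 0.241 in DMSO day 1 and 0.142 in DMSO day 2. Without DMSO day 1 replicate 2 the comparison over both days called 220 genes higher and 46 lower in place of 207 and 41, and the comparison of day 1 called 0 genes.

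Over days 1 and 2, more genes rose past the fold threshold in DAC cells than fell, relative to DMSO cells. Of 16430 genes tested, 207 rose (1.26%) and 41 fell (0.25%). Smaller changes ran the other way in the FPKM as deposited. With no fold threshold, 719 genes were higher (4.38%) and 1997 lower (12.2%) at a limma adjusted p below 0.05. This rule was added after the data were seen. Counts with no fold threshold, here and in the comparisons and lists below, were not repeated under another scaling or any other alternative. A shift of scale bears most on small changes, and its part in their direction was not tested. The 4 largest rises among the genes named were those of TKTL1, HIST1H1T, MAGEA4 and HIST1H2BA, and the macrophage receptor STAB1 and the p53 target CDKN1A also rose. The cholesterol synthesis enzymes LSS and HMGCS1 fell. Of the 207 that rose, 82 averaged below 0.5 FPKM in DMSO and 140 code for protein. In 191 of the 207 every DAC library lay above every DMSO library, a pattern seen in 6.51% of all genes tested, and in 37 of the 41 that fell every DAC library lay below, a pattern seen in 17.9%. The calls were made from these same libraries, so their selection favours this separation and it adds no separate support. The median over all genes tested was -0.09, so changes are read against a median slightly below 0. A scaling by median ratios moved that median by 0.12 and called 239 genes higher and 24 lower, and a scaling to equal sums called 118 and 23. The counts rested most on the day 2 libraries. They were 90 higher and 23 lower without DAC day 2 replicate 2, 114 and 25 without DAC day 2 replicate 1, 92 and 20 without DMSO day 2 replicate 1, and 101 and 21 without DMSO day 2 replicate 2. Without DMSO day 1 replicate 1 the lower count was 67.

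Set against DMSO of its own day, 24 h of DAC changed few genes by the same call. On day 1, 4 genes were called higher (0.0243%) and 0 lower, although 759 were higher and 2011 lower at an unadjusted p below 0.05. The 4 were MAGEA4, TDRG1, ZNF595 and CHI3L1. On day 2, 308 genes were called higher (1.87%) and 57 lower (0.347%), 2.22% together, and with no fold threshold 462 (2.81%) were higher and 365 (2.22%) lower. The 207 genes called over both days had a median change of 1.02 on day 1 and 1.82 on day 2, and 185 of them had the higher estimate on day 2. All of them were positive on each day, which their selection favours. The 41 genes that fell had medians of -1.17 on day 1 and -1.46 on day 2. The difference between the days was itself tested as an interaction, and 0 genes were called in either direction. At an unadjusted p below 0.05 the interaction held 567 higher and 340 lower genes (5.52% together), and the smallest adjusted p was 0.111. A fit that took its spread from all 48 mapped MV411 libraries called 111 genes as changing further upward on day 2 and 4 as changing further downward. That fit also called 83 genes higher and 14 lower on day 1. The day 1 count was 95 higher and 33 lower without DMSO day 1 replicate 1, and 0 or 1 higher without 6 of the other 7 libraries. The day 2 count was 29 to 52 higher and 1 to 6 lower when one of the 4 day 2 libraries was left out, so a per-day result rests on each of its libraries.

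**Figure D1:**
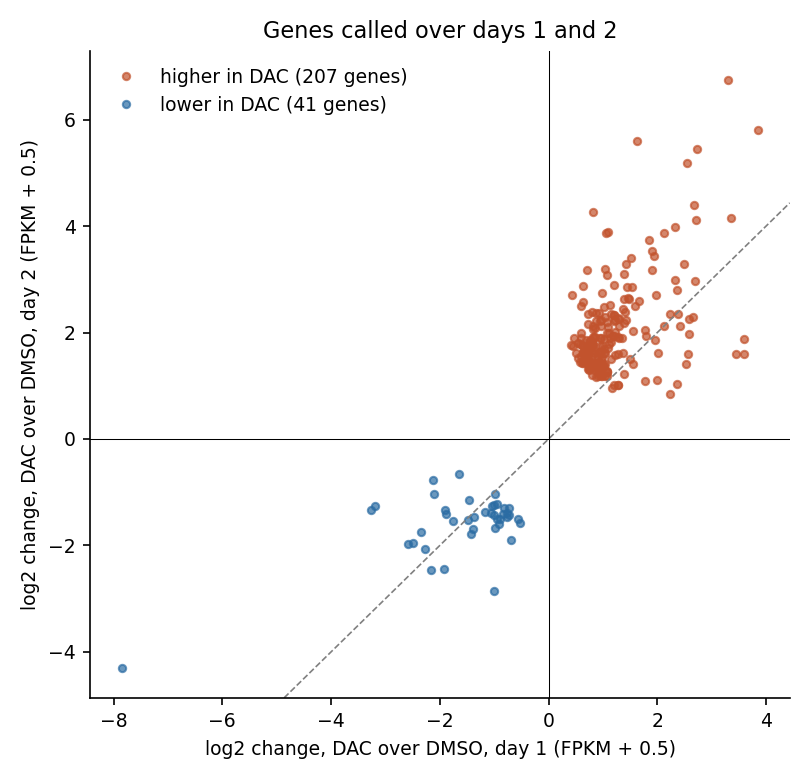
Change on day 1 (x axis) against change on day 2 (y axis), both as log2(FPKM + 0.5) of DAC over DMSO of the same day, for the 207 genes called higher and the 41 called lower over both days; the dashed line marks equal change. Of the higher genes, 185 lie above the line, with TKTL1 the uppermost at 3.29 on day 1 and 6.74 on day 2, and Z83844.1 is the isolated point at the lower left.

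Promoters of 5 of the leading genes are shown for their CG dinucleotides, the sites DNMT1 methylates, which are in capitals. Each window runs from 250 bases before to 50 bases after a RefSeq transcription start (GRCh38.p14, read 5′ to 3′ on the gene's strand). TKTL1 lies on the plus strand of the X chromosome (window chrX:154295545-154295844), HIST1H1T on the minus strand of chromosome 6 (chr6:26108086-26108385), HIST1H2BA on the plus strand of chromosome 6 (chr6:25726527-25726826), PNMA5 on the minus strand of the X chromosome (chrX:152994067-152994366) and ZNF595 on the plus strand near the end of chromosome 4 (chr4:53071-53370).
TKTL1: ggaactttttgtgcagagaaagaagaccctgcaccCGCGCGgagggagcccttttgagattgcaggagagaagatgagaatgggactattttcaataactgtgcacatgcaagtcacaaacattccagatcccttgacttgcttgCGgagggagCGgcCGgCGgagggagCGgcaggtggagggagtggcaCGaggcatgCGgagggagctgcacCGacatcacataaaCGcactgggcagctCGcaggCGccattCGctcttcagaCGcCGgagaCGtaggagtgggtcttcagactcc
HIST1H1T: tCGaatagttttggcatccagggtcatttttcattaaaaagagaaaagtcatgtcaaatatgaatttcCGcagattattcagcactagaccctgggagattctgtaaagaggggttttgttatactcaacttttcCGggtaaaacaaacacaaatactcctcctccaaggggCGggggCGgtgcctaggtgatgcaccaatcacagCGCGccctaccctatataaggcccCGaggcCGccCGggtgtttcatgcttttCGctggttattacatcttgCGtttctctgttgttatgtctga
HIST1H2BA: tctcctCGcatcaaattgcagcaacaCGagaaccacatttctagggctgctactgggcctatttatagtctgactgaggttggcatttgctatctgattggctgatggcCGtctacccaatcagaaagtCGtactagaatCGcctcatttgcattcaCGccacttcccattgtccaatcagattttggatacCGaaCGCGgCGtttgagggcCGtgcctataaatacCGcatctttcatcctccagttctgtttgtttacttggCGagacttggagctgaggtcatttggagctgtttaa
PNMA5: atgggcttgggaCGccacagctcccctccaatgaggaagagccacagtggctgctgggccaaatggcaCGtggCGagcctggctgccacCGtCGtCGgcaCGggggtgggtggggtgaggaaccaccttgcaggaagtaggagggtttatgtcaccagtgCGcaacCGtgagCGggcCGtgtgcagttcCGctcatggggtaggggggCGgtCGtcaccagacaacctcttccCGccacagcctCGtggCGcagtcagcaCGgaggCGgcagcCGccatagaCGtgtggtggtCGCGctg
ZNF595: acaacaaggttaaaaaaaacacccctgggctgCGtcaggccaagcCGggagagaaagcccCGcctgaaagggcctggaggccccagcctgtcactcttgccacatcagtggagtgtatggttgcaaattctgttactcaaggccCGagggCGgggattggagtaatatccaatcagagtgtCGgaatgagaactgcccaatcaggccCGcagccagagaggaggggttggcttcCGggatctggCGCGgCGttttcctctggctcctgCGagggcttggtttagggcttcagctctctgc
They hold 18 CG in TKTL1, 12 in HIST1H1T, 13 in HIST1H2BA, 23 in PNMA5 and 12 in ZNF595. Of the 207 genes that rose, 116 matched a RefSeq window by symbol, and their median was 13 CG (quartiles 7 and 28.3). The 38 matched genes that averaged below 0.5 FPKM in DMSO had a median of 13.5 CG. The 9961 matched genes among all tested had a median of 26 CG (quartiles 18 and 34), and all 35114 windows a median of 14. The called genes therefore had fewer CG near the start than the genes tested as a whole, as a description without a test. Methylation was not measured in these libraries.

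TKTL1, which encodes a relative of transketolase found in testis, had the largest rise. It held 7.34 and 16.5 FPKM in DAC on day 1 and 81.9 and 109 FPKM in DAC on day 2, against 0.57 and 0.796 FPKM in DMSO on day 1 and 0.525 and 0.277 FPKM in DMSO on day 2. The 4 DAC libraries lay far above the 4 DMSO libraries, and day 2 far above day 1. The log2 change over both days was 5.02 (SE 0.67, limma adjusted p = 0.0104). MAGEA4, an X-linked antigen normally confined to testis, held 6.66 and 10.5 FPKM in DAC on day 1 and 61.1 and 62.2 FPKM on day 2, against 0.999 to 1.37 FPKM in the 4 DMSO libraries. Its log2 change was 2.55 on day 1 (limma adjusted p = 0.0471) and 5.18 on day 2 (limma adjusted p = 0.000747). PNMA5, a gene derived from a retrotransposon, held 1.13 and 1.96 FPKM in DAC on day 1 and 29.9 and 27.7 FPKM on day 2, against 0.102 to 0.165 FPKM in DMSO. Its change over both days was 3.61 (SE 0.74, where each day alone had an SE of 0.24), and the call ended without any one of the 4 day 2 libraries (limma adjusted p up to 0.0744). The larger SE includes the difference between the days. ZNF595, a zinc finger gene, held 3.38 and 3.64 FPKM in DAC on day 1 and 12.4 and 15.5 FPKM on day 2, against 0.101 to 0.27 FPKM in DMSO, a change of 3.54 (SE 0.35). The groups did not overlap in any of these genes.

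**Figure D2:**
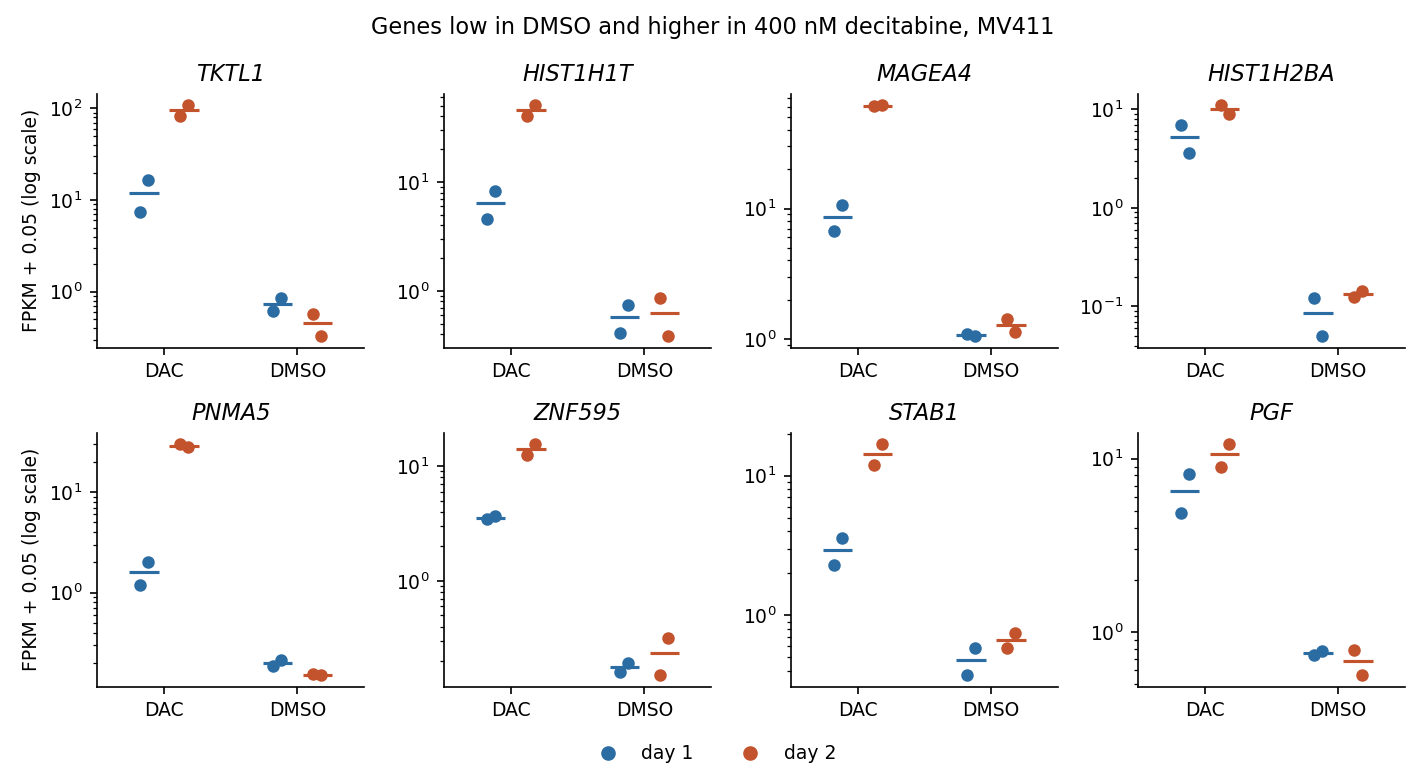
FPKM + 0.05 on a log axis in each library for 8 genes that rose in DAC, with DAC left of DMSO, day 1 in blue and day 2 in orange; points are libraries (2 per group and day) and bars their means. In each panel all DAC points lie above all DMSO points, and HIST1H2BA and PGF differ least between the days.

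Of 54 germline genes listed, 20 passed the filter and only 8 did so without either day 2 DAC library, so their count and median are given as a description. Over both days 5 rose and 0 fell, with a median of 1.15, where 1.26% of all genes tested rose. They were TKTL1, MAGEA4, RHOXF2, MAEL and PIWIL2. RHOXF2, an X-linked homeobox gene of germ cells with a near-identical copy, held 0.18 and 0.761 FPKM in DAC on day 1 and 9.06 and 9.2 FPKM on day 2, against 0 to 0.0591 FPKM in DMSO. MAEL, a gene of transposon silencing in the germ line, held 0.218 and 0.471 FPKM in DAC on day 1 and 4.32 and 5.0 FPKM on day 2, against 0.00976 to 0.0944 FPKM in DMSO. Both therefore became visible mainly on day 2. On day 1 alone 1 of the 20 was called higher (0.0243% of all genes), with a median of 0.18, and on day 2 alone 14 were (1.87% of all genes), with a median of 2.20. DAZL, an RNA-binding protein of germ cells, was among those called on day 2 only, at 2.66 and 4.06 FPKM in DAC and 0 and 0.00891 FPKM in DMSO. The list's count was 2 without DAC day 1 replicate 2, without either day 2 DAC library or without either day 2 DMSO library, 2 under either other scaling, and 13 with the spread taken from all mapped groups. RHOXF2 and MAEL lost their calls without DAC day 1 replicate 2 or either DMSO day 2 library (limma adjusted p up to 0.118), and also with a pseudocount of 1, with no filter and under either other scaling (up to 0.102). With a day 2 DAC library left out, both failed the filter and were not tested.

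Histone genes moved in both directions. HIST1H1T and HIST1H2BA, the testis forms of linker histone H1 and of H2B, were near 0 in DMSO and rose. HIST1H1T held 4.55 and 8.22 FPKM in DAC on day 1 and 40.6 and 50.7 FPKM on day 2, against 0.335 to 0.82 FPKM in DMSO, a log2 change of 4.08 (SE 0.55, limma adjusted p = 0.0104). HIST1H2BA held 6.83 and 3.55 FPKM in DAC on day 1 and 11.0 and 8.87 FPKM on day 2, against 0 to 0.0924 FPKM in DMSO, a change of 3.75 (SE 0.25, limma adjusted p = 0.00681). Its estimates were 3.35 on day 1 and 4.15 on day 2, closer together than the 2.72 and 5.45 of HIST1H1T. A further 4 histone genes among the 207, picked after their values were seen, were HIST1H3E at 2.12, HIST1H2AA at 2.05, HIST3H3 at 1.79 and HIST1H1A at 1.18. HIST1H2AA and HIST3H3 are the testis forms of H2A and H3, and HIST1H3E and HIST1H1A belong to the replication-dependent cluster.

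Listed genes of replication-dependent histones, which are made in S phase to package new DNA, were lower as a group. HIST1H3E and HIST1H1A, which belong to the same cluster and rose, are not on this list. Its members were chosen with earlier results of these data known. All 21 listed genes were tested, all 21 had negative changes, and in 19 every DAC library lay below every DMSO library, against 17.9% of all genes. None reached the fold threshold, while 18 of the 21 had a limma adjusted p below 0.05 with no fold threshold, against 12.2% of all genes tested in that direction. The list median was -0.58, beside -0.09 for all genes, and it was between -0.66 and -0.45 under every alternative run. HIST1H2BJ, an H2B gene, held 579 and 566 FPKM in DAC on day 1 and 587 and 473 FPKM on day 2, against 856 and 1100 FPKM in DMSO on day 1 and 1030 and 857 FPKM on day 2, a change of -0.80 (SE 0.12, limma adjusted p = 0.0111). HIST3H2BB, an H2B gene that is not on the list, was called, with 8.9 and 11.5 FPKM in DAC on day 1 and 9.13 and 8.52 FPKM on day 2, against 18.7, 29.2, 24.4 and 23.1 FPKM in DMSO. It fell by 1.27 on the log2 scale (SE 0.15, limma adjusted p = 0.00995), and no alternative ended that call. Histone genes share sequence, so how fragments were divided among them is uncertain.

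Genes of the cell cycle had smaller negative estimates. Of 36 genes of S phase and DNA replication, 35 had negative changes and 0 were called, with a median of -0.30. Of 32 genes of mitosis, 30 had negative changes and 0 were called, with a median of -0.28. With no fold threshold 19 of the 36 and 15 of the 32 were lower at a limma adjusted p below 0.05, against 12.2% of all genes. MCM6, a subunit of the replicative helicase, held 73.6 and 99.5 FPKM in DAC on day 1 and 66.7 and 69.1 FPKM on day 2, against 111, 125, 104 and 122 FPKM in DMSO. PLK1, a mitotic kinase, held 41.0 and 31.4 FPKM in DAC on day 1 and 39.3 and 41.0 FPKM on day 2, against 58.4, 57.3, 51.6 and 52.1 FPKM in DMSO. The groups did not overlap in either gene. Their limma adjusted p values were 0.0209 for MCM6 and 0.0202 for PLK1. Under the alternatives that kept all libraries these reached 0.113 and 0.0831, so the counts with no fold threshold are not firm. Bulk RNA does not tell a smaller share of cells in a phase from less RNA per cell. Genes of MYC and ribosome biogenesis had a median of -0.36 with 0 of 28 called, and MYC itself held 121 to 199 FPKM in DAC and 215 to 269 FPKM in DMSO.

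Several p53 targets rose. Of 38 tested of 40 listed, 4 rose and 0 fell, against 1.26% of all genes that rose, and the list median was 0.30. In 18 of the 38 every DAC library lay above every DMSO library, against 6.51% of all genes, and 17 had a limma adjusted p below 0.05 with no fold threshold, against 4.38%. CDKN1A, which encodes the cell cycle inhibitor p21, held 102 and 117 FPKM in DAC on day 1 and 134 and 123 FPKM on day 2, against 51.4 and 66.1 FPKM in DMSO on day 1 and 62.5 and 50.7 FPKM on day 2. Its change of 1.04 (SE 0.12, limma adjusted p = 0.00945) was already 0.91 on day 1. On that day alone its limma adjusted p was 0.123, and 0 of the 38 were called. PLK2, a stress-responsive kinase, held 25.9 and 33.9 FPKM in DAC on day 1 and 34.1 and 46.8 FPKM on day 2, against 12.6 to 17.6 FPKM in DMSO, a change of 1.22 (SE 0.17, limma adjusted p = 0.0108). The others that rose were SPATA18 at 1.09, a gene of mitochondrial quality control, and TP53INP1 at 1.08, a promoter of p53-dependent cell death. SPATA18 lay below 1 FPKM in every DMSO library and passed the filter through DAC libraries alone. MDM2, the ubiquitin ligase that degrades p53, held 192 to 240 FPKM in DAC and 121 to 144 FPKM in DMSO, a change of 0.73 short of the threshold. The death receptor FAS held 4.15 to 5.63 FPKM in DAC and 2.0 to 2.92 FPKM in DMSO (0.89). BAX (-0.05), PMAIP1 (0.07) and TNFRSF10A (-0.00), which act in apoptosis, had estimates near 0. The list median was 0.27 on day 1 and 0.35 on day 2, so the group's median was nearly as high at the earlier time. The count was 2 without any one of DAC day 2 replicate 1, DMSO day 2 replicate 1 or DMSO day 2 replicate 2. SPATA18 then lost its call, also without DAC day 1 replicate 2 or DAC day 2 replicate 2 (limma adjusted p up to 0.075). CDKN1A dropped to 0.96 and TP53INP1 to 1.00, just under the fold threshold, at limma adjusted p up to 0.0421.

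Genes of cholesterol and fatty acid synthesis were lower and supplied 6 of the 41 genes that fell. Of 30 tested of 32 listed, 6 fell and 0 rose, against 0.25% of all genes that fell, the list median was -0.67, and 28 had negative changes. In 23 of the 30 every DAC library lay below every DMSO library, against 17.9% of all genes, and 24 had a limma adjusted p below 0.05 with no fold threshold, against 12.2%. LSS, which closes the ring of the first sterol, held 22.0 and 14.3 FPKM in DAC on day 1 and 15.5 and 13.3 FPKM on day 2, against 31.4 and 32.9 FPKM in DMSO on day 1 and 40.8 and 36.9 FPKM on day 2. It fell by 1.12 on the log2 scale (SE 0.16, limma adjusted p = 0.0113). HMGCS1, at the head of the mevalonate pathway, held 30.0 and 21.4 FPKM in DAC on day 1 and 23.5 and 19.6 FPKM on day 2, against 45.3, 41.9, 61.6 and 53.2 FPKM in DMSO. It fell by 1.08 (SE 0.16, limma adjusted p = 0.0118). The others that fell were DHCR7 at -1.11, the last enzyme of cholesterol synthesis, MVD at -1.08, a mevalonate pathway enzyme, the fatty acid desaturase SCD at -1.08 and the sterol sensor partner INSIG1 at -1.06. The transcription factors that drive the pathway, SREBF1 (-0.50) and SREBF2 (-0.28), and the efflux pump ABCA1 (0.14) had overlapping groups. The median was -0.53 on day 1, with 0 called, and -0.84 on day 2, with 10 called. All 6 calls ended under median-ratio scaling, which placed the list median at -0.54 beside 0.03 for all genes. They numbered 1 without DMSO day 2 replicate 1 or DAC day 2 replicate 2. In DMSO, LSS and HMGCS1 were higher on day 2 than on day 1, and in DAC they were not.

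The promoters of LSS and HMGCS1 are shown for the CCAAT box, a motif bound by NF-Y, which is known to act with sterol-responsive factors. Capitals mark CCAAT on either strand (ATTGG as read), in RefSeq windows as above. LSS lies on the minus strand of chromosome 21 (chr21:46228725-46229024) and HMGCS1 on the minus strand of chromosome 5 (chr5:43313363-43313662).
LSS: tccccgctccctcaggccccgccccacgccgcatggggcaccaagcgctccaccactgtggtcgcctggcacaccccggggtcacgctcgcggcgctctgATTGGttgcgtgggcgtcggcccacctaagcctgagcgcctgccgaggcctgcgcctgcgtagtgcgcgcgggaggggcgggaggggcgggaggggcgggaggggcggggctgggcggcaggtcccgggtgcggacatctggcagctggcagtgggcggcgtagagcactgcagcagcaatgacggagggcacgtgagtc
HMGCS1: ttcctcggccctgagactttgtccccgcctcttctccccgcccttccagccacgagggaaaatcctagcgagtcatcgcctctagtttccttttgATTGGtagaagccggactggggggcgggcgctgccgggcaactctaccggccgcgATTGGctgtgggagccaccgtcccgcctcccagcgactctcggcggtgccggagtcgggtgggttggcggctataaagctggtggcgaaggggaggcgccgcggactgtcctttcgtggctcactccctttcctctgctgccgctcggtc
CCAAT was present on either strand in 16 of 24 matched genes of the lipid list (66.7%), in 5 of the 6 that fell (83.3%), and in 17 of 19 matched replication histones (89.5%). It was present in 37.5% of the 9961 matched genes tested, in 34.6% of all windows and in 31.9% of the 116 genes that rose. The 9-letter motif TCACNCCAC, a form of the sterol element, was found on either strand in 1 of the 24 lipid genes (4.17%), in 0 of the 6 that fell, in 1.06% of the genes tested and in 1.13% of all windows. It was also found in 5 of the 38 matched genes that rose from below 0.5 FPKM in DMSO (13.2%). Neither motif contains the other, and a match is not evidence of binding.

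**Figure D3:**
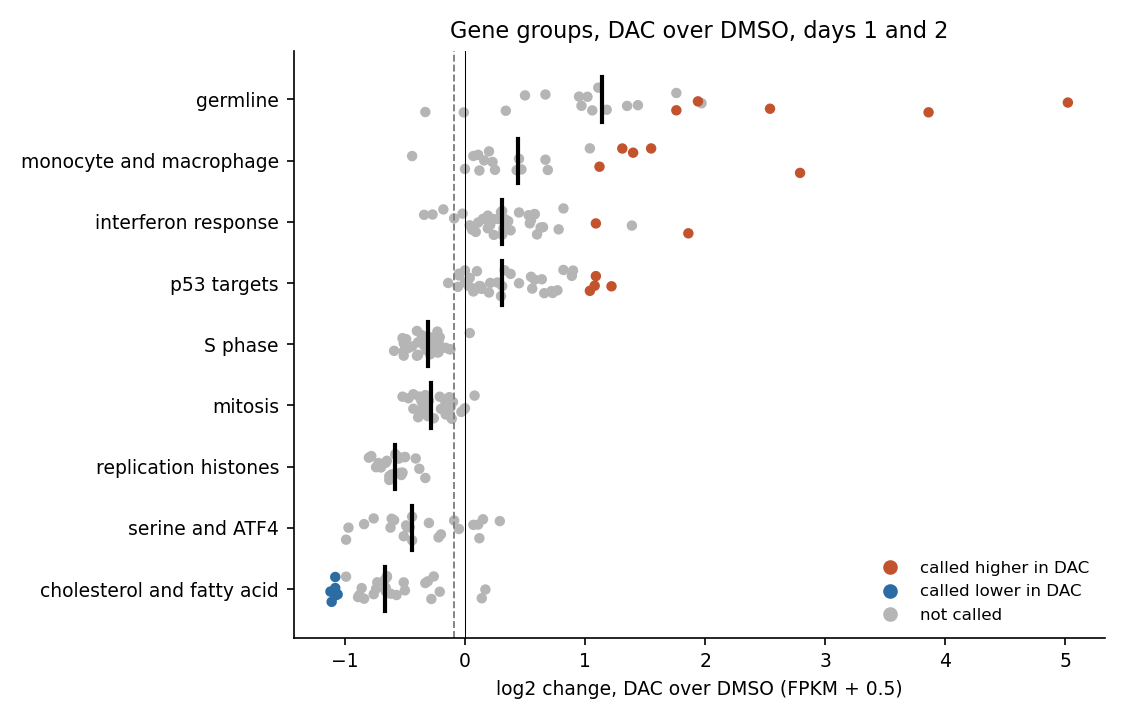
Change in DAC over DMSO across days 1 and 2, as log2(FPKM + 0.5), for each tested member of 9 gene lists; points in orange were called higher, points in blue called lower and grey points not called, black bars are list medians and the dashed line is the median of all genes tested (-0.09). Germline medians lie at 1.15, p53 targets at 0.30, replication histones at -0.58 and cholesterol and fatty acid genes at -0.67.

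The serine synthesis and ATF4 list, which serves amino acid supply, had a median of -0.44 with 0 of 23 called over both days. On day 2 alone 2 were called lower, against 0.347% of all genes, namely PHGDH at -1.11 (limma adjusted p = 0.0117) and SLC7A5 at -1.15 (limma adjusted p = 0.00574). PHGDH, the first enzyme of serine synthesis, stood just short of the threshold over both days and passed it with a pseudocount of 0.1 (-1.01). It held 27.7 and 29.8 FPKM in DAC on day 1 and 25.4 and 23.1 FPKM on day 2, against 47.5, 60.0, 51.7 and 53.9 FPKM in DMSO, a change of -0.99 (SE 0.09, limma adjusted p = 0.00876). The amino acid carrier SLC7A5 held 32.6 to 51.7 FPKM in DAC and 72.5 to 82.2 FPKM in DMSO (-0.97). The glycolytic kinase HK2, in a list of glycolysis and hypoxia genes with a median of -0.32 and 0 of 21 called, held 13.4 to 16.3 FPKM in DAC and 22.8 to 24.7 FPKM in DMSO (-0.64). The groups did not overlap in these genes. Ribosomal protein genes (median -0.14, 0 of 32 called) and oxidative phosphorylation genes (median -0.19, 0 of 27 called) stayed near the median of all genes.

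Monocyte and macrophage genes were higher in part. Of 20 tested of 30 listed, 5 rose and 0 fell, against 1.26% of all genes that rose, and the median was 0.44. STAB1, a scavenger receptor of macrophages, held 2.25 and 3.5 FPKM in DAC on day 1 and 11.9 and 16.8 FPKM on day 2, against 0.322 to 0.691 FPKM in DMSO, a change of 2.79 (SE 0.39, limma adjusted p = 0.0107). MNDA, a nuclear antigen of myeloid cells, held 5.59 and 6.92 FPKM in DAC on day 1 and 16.5 and 15.4 FPKM on day 2, against 3.01 to 3.27 FPKM in DMSO (1.55). The others were the costimulator CD86 at 1.4, the integrin ITGAM at 1.31 and the lysosomal protein CD68 at 1.12. LYZ (0.07), CSF1R (0.11), S100A9 (0.25) and CD163 (0.12), further genes of this lineage, had overlapping groups, and LILRB4 was lower at -0.44. ITGAM lost its call without any one of the 4 day 2 libraries and MNDA without DMSO day 2 replicate 1 or DAC day 2 replicate 2 (limma adjusted p up to 0.0544), and the list's count was then 3 or 4. Of 6 tested genes of 20 on the erythroid and megakaryocyte list, 3 rose, against 1.26% of all genes, namely the transcription factors NFE2 at 1.39, KLF1 at 1.29 and GATA2 at 1.09. With no fold threshold 3 of the 6 were higher and 1 lower at a limma adjusted p below 0.05, against 4.38% and 12.2% of all genes. KLF1 held 1.21 to 3.1 FPKM in DAC and 0.539 to 0.734 FPKM in DMSO, and its call ended without any one of the 4 day 2 libraries. KLF1 and STAB1 lay below 1 FPKM in every DMSO library and passed the filter through DAC libraries alone, so the counts of their lists are descriptions. The erythroid marker sum was 0.234 to 1.11 FPKM in DAC and 0.303 to 0.548 FPKM in DMSO, with overlap. MPO, a granule enzyme, held 5.47, 6.21, 23.9 and 22.2 FPKM in DAC and 3.3 to 6.46 FPKM in DMSO, and the day 2 values alone stood apart.

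A few interferon-response genes rose. Of 38 tested of 49 listed, 2 rose and 0 fell, against 1.26% of all genes that rose, with a median of 0.31. In 14 of the 38 every DAC library lay above every DMSO library, against 6.51% of all genes. LGALS3BP, a secreted glycoprotein, held 2.69 and 3.19 FPKM in DAC on day 1 and 8.3 and 10.1 FPKM on day 2, against 0.869 to 1.71 FPKM in DMSO (1.86, SE 0.36, limma adjusted p = 0.0207). IFI6 held 7.72 and 8.42 FPKM in DAC on day 1 and 13.2 and 14.7 FPKM on day 2, against 4.2 to 5.73 FPKM in DMSO (1.09, SE 0.19, limma adjusted p = 0.0152). Both lost their calls without either DMSO day 2 library or DAC day 2 replicate 2, when the list's count was 0, and LGALS3BP also without DAC day 2 replicate 1, when it was 1. The sensor IFIH1 (0.58) was higher without reaching the threshold, while ISG15 (0.06) and MX1 (0.24) had overlapping groups. Of 21 antigen presentation genes 0 were called over both days, with a median of 0.25, and on day 2 the class II genes HLA-DPA1 (1.67), HLA-DPB1 (1.35) and HLA-DRA (1.31) were called higher. HLA-DRA held 50.0 and 61.7 FPKM in DAC and 20.8 and 23.4 FPKM in DMSO on that day. Of 17 inflammatory genes CCL2, a monocyte chemokine, rose by 1.82 (SE 0.29) to 6.23 to 21.8 FPKM in DAC, against 2.39 to 3.07 FPKM in DMSO, and IER3 was called at 1.07 with overlapping groups and lost its call without any one of 7 libraries.

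Over both days, no gene of the methylation machinery reached the threshold. DNMT1 held 118 and 123 FPKM in DAC on day 1 and 100 and 109 FPKM on day 2, against 149, 116, 131 and 140 FPKM in DMSO, a change of -0.25 (limma adjusted p = 0.117). DNMT3A (-0.20) and DNMT3B (-0.05), the de novo methyltransferases, had overlapping groups. UHRF1, which brings DNMT1 to replicated DNA, held 127 and 140 FPKM in DAC on day 1 and 121 and 118 FPKM on day 2, against 187, 234, 188 and 189 FPKM in DMSO. Its change of -0.65 (SE 0.08, limma adjusted p = 0.00995) was made up of estimates of -0.65 on day 1 and -0.66 on day 2. None of 18 genes of the methylation machinery and none of 20 genes of decitabine uptake and metabolism was called over both days. CDA, the deaminase that inactivates decitabine, held 0.919 and 0.773 FPKM in DAC on day 1 and 1.6 and 1.74 FPKM on day 2, against 0.259 to 0.607 FPKM in DMSO (0.93, limma adjusted p = 0.0537). On day 2 alone CDA was called higher, at 1.43 (limma adjusted p = 0.0429), as 1 of the 20, against 1.87% of all genes. It passed the filter through the day 2 DAC libraries alone.

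Further genes that rose had varied roles. PGF, a growth factor of the VEGF family, held 4.78 and 8.09 FPKM in DAC on day 1 and 8.95 and 12.1 FPKM on day 2, against 0.512 to 0.736 FPKM in DMSO (2.89, SE 0.23, limma adjusted p = 0.00681). CHI3L1, a secreted chitinase-like protein, held 29.7 and 36.3 FPKM in DAC on day 1 and 80.9 and 99.4 FPKM on day 2, against 7.58 to 8.67 FPKM in DMSO (2.68, SE 0.29, limma adjusted p = 0.00876). TDRG1, a testis RNA, held 6.77, 6.93, 18.8 and 19.3 FPKM in DAC and 0.558 to 0.691 FPKM in DMSO (3.42). The tumor antigen PRAME (2.72), the keratin KRT17 (2.54, with near-identical copies elsewhere) and the noncoding genes AL713998.1 (2.66) and AC090796.1 (3.15) completed the leading 15. CDKN1C, an imprinted cell cycle inhibitor, rose by 1.78 (SE 0.24), the only one of 16 imprinted genes called over both days. On the lower side NKD2, an inhibitor of WNT signalling, held 74.7 and 65.0 FPKM in DAC on day 1 and 38.3 and 43.5 FPKM on day 2, against 112 to 144 FPKM in DMSO (-1.23, SE 0.13, limma adjusted p = 0.00876). The scaffold GRIP1 (-1.25), the immunoglobulin segment IGKC (-1.12), FAM156B (-1.22, with a near-identical copy) and C12orf75 (-1.15) also fell. The largest negative estimate was Z83844.1 at -6.08. It was listed at 0 in 3 DAC libraries and at 61.5 FPKM in the fourth, against 83.4 to 155 FPKM in DMSO, and lost its call without any one of 7 libraries. A listed 0 at such levels can be a failed estimate. The noncoding genes AC091849.1 (-2.31), AC092755.1 (-2.30), AC091304.5 (-1.93) and AC091042.1 (-1.64) also had DAC libraries listed at 0 and lost their calls without 3 to 6 of the libraries. AC091042.1 lost it in 5 of the 6 such fits in which it was tested. FAM156B lost it without 6 and C12orf75 without DMSO day 2 replicate 2.

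**Figure D4:**
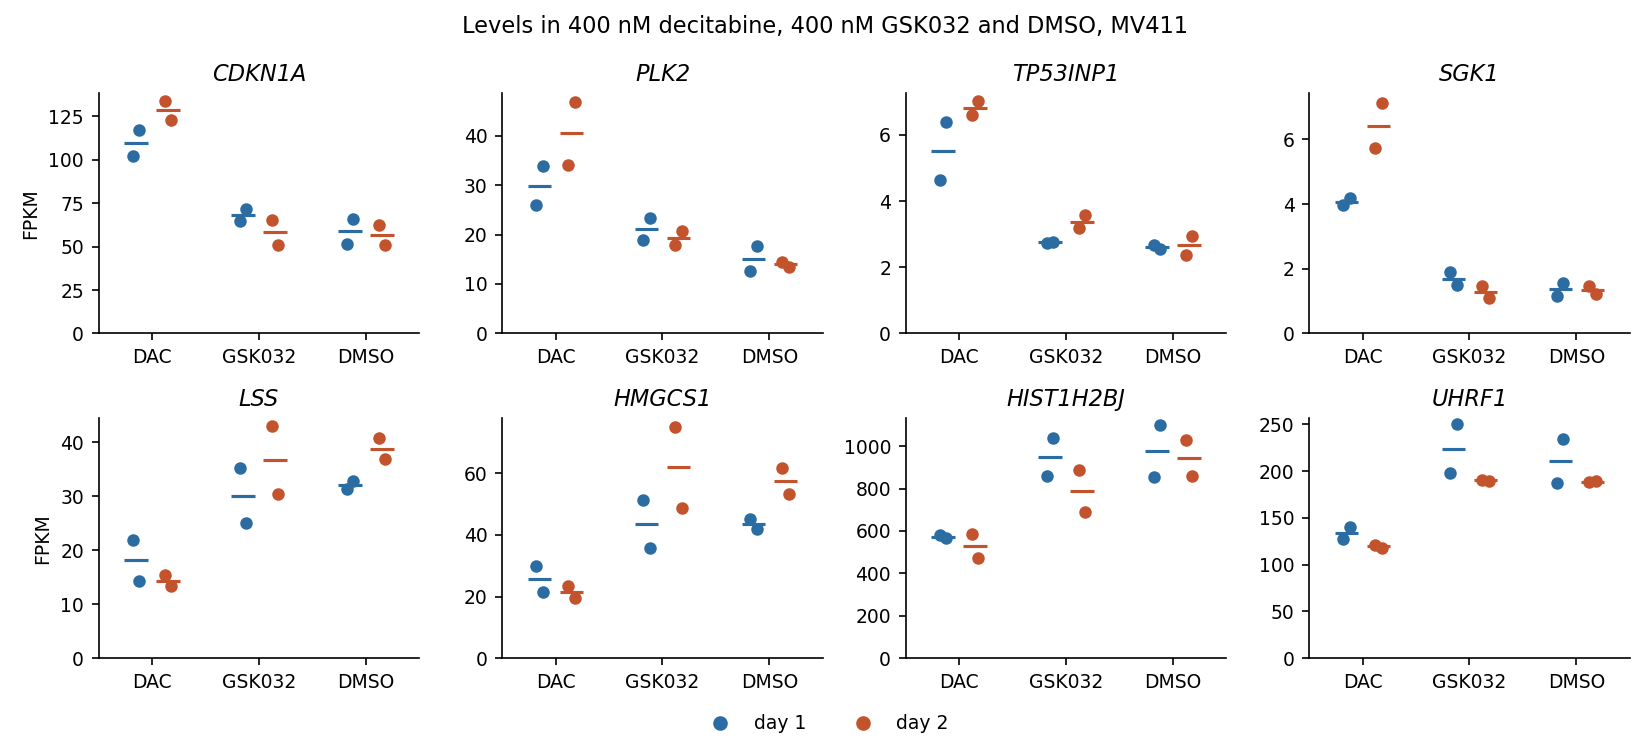
FPKM in each library for 8 genes, with DAC left, GSK032 in the middle and DMSO right, day 1 in blue and day 2 in orange; points are libraries (2 per group and day), bars their means, and axes start at 0. In each panel the GSK032 mean lies nearer to DMSO than to DAC, and CDKN1A runs from 102 to 134 in DAC, 51.2 to 71.5 in GSK032 and 50.7 to 66.1 in DMSO.

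Against GSK032 at the same dose and days, few genes differed. Of 16506 genes tested, 16 were higher (0.0969%) and 4 lower (0.0242%) in DAC than in GSK032. The 3 largest were SGK1, AC005593.1 and RASD1. SGK1, a kinase induced by glucocorticoids and cell stress, held 3.96 and 4.19 FPKM in DAC on day 1 and 5.73 and 7.12 FPKM on day 2, against 1.9, 1.49, 1.46 and 1.1 FPKM in GSK032 (1.51, limma adjusted p = 0.035). CDKN1C held 2.49 to 6.73 FPKM in DAC and 0.583 to 2.12 FPKM in GSK032 (1.29, limma adjusted p = 0.0352). MVD held 38.6 and 29.9 FPKM in DAC on day 1 and 34.2 and 26.8 FPKM on day 2, against 64.3, 59.1, 94.2 and 59.0 FPKM in GSK032 (-1.07, limma adjusted p = 0.0439). HIST3H2BB was called too, at -1.13. These calls were unstable. Leaving out any one of the 8 libraries left 0 to 3 higher and 0 or 1 lower, scaling to equal sums left 1 and 0, and scaling by median ratios left 21 and 2.

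By list, the DAC minus GSK032 median was 0.25 for p53 targets, with 37 of 38 estimates positive, and -0.64 for cholesterol and fatty acid genes, with 30 of 30 negative. It was -0.48 for replication histones, with 21 of 21 negative, -0.22 for S phase, -0.28 for mitosis and -0.38 for serine and ATF4 genes, beside -0.04 for all genes tested. Of these lists MVD alone was called, while DHCR7 (-1.18), HMGCS1 (-1.11) and LSS (-1.02) passed the fold threshold at limma adjusted p of 0.0774, 0.0612 and 0.0611. With no fold threshold, 6 of 38 p53 targets were higher at a limma adjusted p below 0.05 (0.357% of all genes), and 10 of 30 lipid genes and 10 of 21 histones were lower (1.24% of all genes). Among them CDKN1A was higher by 0.91, TP53INP1 by 0.89 and MDM2 by 0.76. The germline median was -0.02 over 27 tested genes, and the monocyte median was 0.04 over 20. TKTL1 held 7.34 to 109 FPKM in DAC and 2.59 to 93.0 FPKM in GSK032, a difference of 0.74 with a 95% interval of -0.16 to 1.63. HIST1H1T held 4.55 to 50.7 FPKM in DAC and 4.72 to 79.6 FPKM in GSK032 (-0.31, interval -0.89 to 0.27). HIST1H2BA had the lower level in DAC, at 3.55 to 11.0 FPKM, against 6.65 to 64.6 FPKM in GSK032 (-1.49, limma adjusted p = 0.0955).

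**Figure D5:**
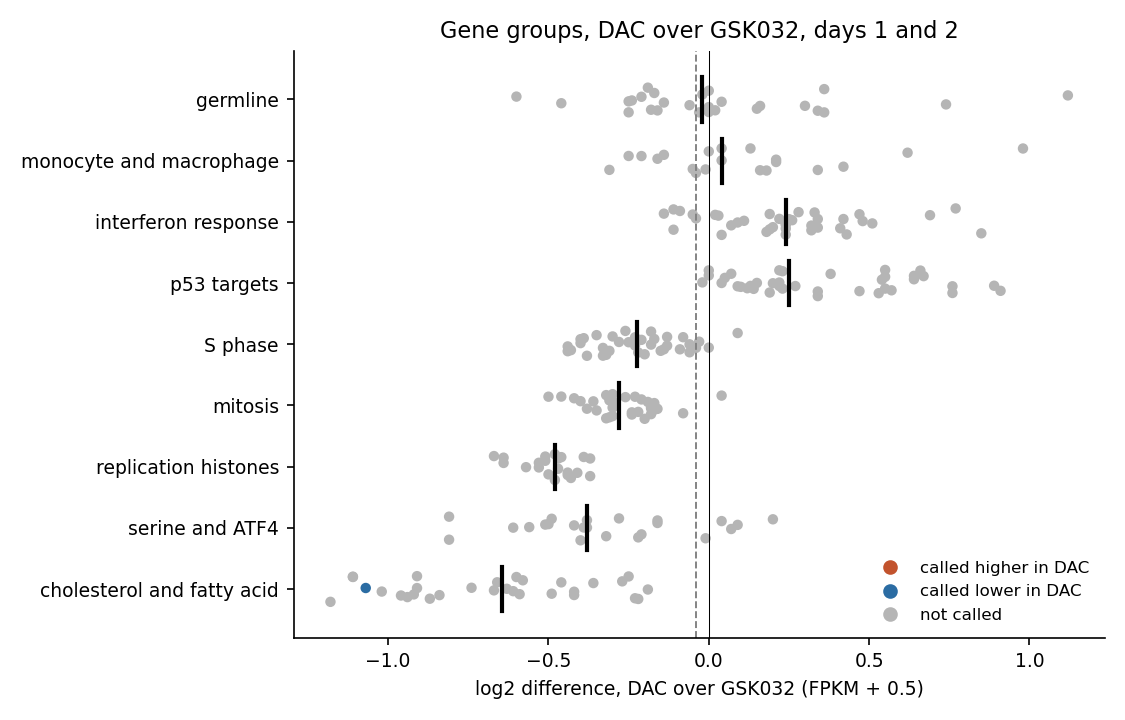
Difference between DAC and GSK032 across days 1 and 2, as log2(FPKM + 0.5) of DAC over GSK032, for the tested members of the same 9 lists; colours and bars are as in the plot against DMSO, and the dashed line is the median of all genes tested (-0.04). Germline and monocyte medians lie at -0.02 and 0.04, while all 21 histones and all 30 cholesterol and fatty acid genes lie below 0.

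The mean effect of days 4 and 6 minus that of days 1 and 2 was called positive for 730 genes (3.91%) and negative for 413 (2.21%) of 18683 tested, 6.12% together, and scaling to equal sums gave 581 and 592. By list, 29 of 35 germline genes and 12 of 23 antigen presentation genes had more positive effects later. The filter here also counted the later libraries, so genes could enter through later DAC libraries alone. The germline list had 35 tested genes here and 20 over days 1 and 2, so its count is a description. More negative effects were called for 24 of 32 mitosis genes, 16 of 21 histones, 15 of 36 S phase genes and 10 of 30 lipid genes. For p53 targets 1 of 39 was called positive and 2 negative, with a median of -0.13. STAB1 averaged 2.87, 14.4, 45.8 and 71.5 FPKM in DAC on days 1, 2, 4 and 6, against 0.428, 0.61, 0.468 and 0.614 FPKM in DMSO. CDKN1A averaged 110, 129, 85.1 and 54.8 FPKM in DAC on those days, against 58.8, 56.6, 48.9 and 51.1 FPKM in DMSO, and its effect was smaller later by 0.59 on the log2 scale (limma adjusted p = 0.0195), short of the fold threshold. STAB1 thus kept climbing through day 6 and CDKN1A was highest on day 2 (n = 2 libraries per mean).

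The authors also deposited a table of log2 changes, and its day 1 column for DAC could not be used. In the authors' deposited table for MV411 that column equals, in 47210 of 47210 rows, the day 1 DAC column of the table for NOMO1, another leukemia line of the study, although only 164 rows of the 2 tables name the same gene. Of the 640 genes whose FPKM changed by at least 1 on the log2 scale on day 1, 243 (38.0%) had the same sign in the authors' deposited table, against 881 of 882 (99.9%) on day 2. For TKTL1 the authors' deposited table gives 1.28 on day 1 and 7.91 on day 2, and the FPKM values give 3.29 and 6.74. For HIST1H2BA it gives -0.80 on day 1 where FPKM give 3.35, and 6.82 on day 2 where FPKM give 4.15. Every day 1 value above therefore comes from FPKM.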

How the data were processed

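RNA was extracted with RNeasy kits, per the labels' protocols. The submitters' processing notes name Salmon 0.12.0, DESeq2 and the hg38 build, with no role for each. Values are FPKM as deposited by the authors, in 1 table for MV411. Strand use and the exact length correction are not given in the sources used here. Of the MV411 table's FPKM columns, 48 were mapped to samples by name, and 4 could not be (repeated names) and were not used. Changes on the log2 scale were also deposited by the authors in a separate table, used only as described for it.

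From the FPKM, log2(FPKM + 0.5) was fitted with limma 3.58.1 in R 4.3.3 (lmFit, eBayes with trend), with day as covariate over both days, keeping genes that 2 or more fitted libraries held at 1 FPKM or above. The scripts were tested on simulated data. Calls needed a Benjamini-Hochberg adjusted p below 0.05 over all genes tested and a log2 change of at least 1. No count test was run, since the deposited values are not counts. Low values of genes with 1 transcript lay within 0.15 of whole multiples in 68.2 to 76.3% of cases, so fragments were not recovered as counts. Depth was 45.3 to 84.3 M on the scale estimated from those steps, and genes near 1 FPKM are the least precise.

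Other pseudocounts, filters, scalings, a fit over all mapped groups, a replicate block and leaving out each library were tried. Same-numbered libraries deviated together with correlations of 0.05 to 0.207, not all above 0.1, so the numbers were not taken as pairs. The second principal component nonetheless separated the replicate numbers, and the main fits leave that difference in their spread. Genes named had a mean of at least 1 FPKM in the higher group and were not small RNAs. They were the 15 largest changes called higher and the 12 called lower with every DAC library beyond every DMSO library, from each list at most 4 that were called (or, with none called, the 2 that changed most), the 3 largest called in each direction in the other comparisons, and DNMT1, DNMT3A, DNMT3B and UHRF1. Some of these are not reported here, and further list members were added after their values were seen. The members and lists were chosen with earlier results of these data known. Genes with near-identical copies (RHOXF2, PAGE2, KRT17, FAM156B, MAGEA and histone genes) and overlapping antisense genes have uncertain values.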

Additional observations from a re-analysis of the deposited data

Results flagged for a closer look

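The effect of DAC at days 4 and 6 minus its effect at days 1 and 2 was tested as an interaction, and limma called it higher for 730 genes and lower for 413. The named differences were 7.99 for Z83844.1, 4.64 for PAGE2, 4.34 for PAGE2B, -2.78 for TRIB3, -2.77 for CCL5 and -2.51 for IGLJ2 on the log2 scale.

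PAGE2, an X-linked germline antigen with a near-identical copy, averaged 0.0353, 1.29, 15.3 and 36.9 FPKM in DAC on days 1, 2, 4 and 6, against 0.103, 0, 0.0521 and 0.0595 FPKM in DMSO. PAGE2B averaged 0.0353, 2.94, 19.5 and 42.7 FPKM in DAC on those days, against 0.0275, 0.034, 0.0576 and 0.0926 FPKM in DMSO. Both were near 0 on day 1 and climbed in DAC, while they stayed near 0 in DMSO. In GSK032 on days 1 and 2, PAGE2 averaged 0 and 1.31 FPKM and PAGE2B averaged 0.102 and 4.35 FPKM, so the early rise was not particular to DAC.

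The negative differences came with changes in DMSO itself. TRIB3, a stress-induced pseudokinase, averaged 6.13, 5.86, 3.32 and 4.01 FPKM in DAC on days 1, 2, 4 and 6, against 7.19, 9.79, 20.0 and 72.5 FPKM in DMSO. CCL5, a chemokine, averaged 14.4, 23.0, 10.2 and 11.6 FPKM in DAC, against 11.6, 14.6, 34.6 and 88.5 FPKM in DMSO. IGLJ2 averaged 1.4, 0.301, 0 and 0.631 FPKM in DAC, against 1.11, 0.345, 2.4 and 7.08 FPKM in DMSO. In all 3 the DMSO mean of day 6 was the highest of the 8 means, and the part of culture time in these differences was not tested.

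Z83844.1 averaged 0, 30.7, 0 and 74.4 FPKM in DAC, against 119, 111, 27.2 and 0 FPKM in DMSO, with values listed at 0 in both groups.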

How the results depend on the processing

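Over both days the counts of 207 higher and 41 lower genes were 118 higher under scaling to equal sums and 719 with no fold threshold (a rule chosen after the data were seen). The lower count was 24 with no filter, 23 under equal sums, 24 under median ratios and 1997 with no fold threshold. On day 1 the 4 higher became 1 with a pseudocount of 1 or equal sums, 9 under median ratios, 83 with all groups and 2 with the replicate block, and the 0 lower became 2 with no filter and 14 with all groups. On day 2 the 308 higher became 186 and the 57 lower 26 under equal sums, and 365 were lower with no fold threshold. The difference between days, 0 and 0, became 10 and 6 with no filter and 111 and 4 with all groups. Against GSK032 the 16 higher became 25 and 10 with pseudocounts of 0.1 and 1, 2 with no filter, 1 under equal sums, 29 with all groups and 59 with no fold threshold. The 4 lower became 0 with no filter or equal sums, 2 under median ratios, 15 with all groups, 7 with the replicate block and 205 with no fold threshold. For days 4 and 6 minus days 1 and 2, the 730 higher became 477 with a filter on the mean and 2368 with no fold threshold, and the 413 lower became 2020. The causes were not tested.

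Leaving out 1 library gave 90 to 245 higher and 20 to 67 lower over both days, 0 to 95 and 0 to 33 on day 1, 29 to 368 and 1 to 75 on day 2, 0 and 0 for the difference between days, 0 to 3 and 0 to 1 against GSK032, and 676 to 784 and 376 to 439 for later minus earlier days. The replicate block, whose numbers are shared without a known pairing, gave 192 and 44 over both days and 285 and 60 on day 2, and lowered the germline count over both days from 5 to 2, with RHOXF2 and MAEL among the calls that ended. Scaling by median ratios moved the median of all genes by 0.12 over both days, 0.11 on day 1 and 0.13 on day 2, and equal sums by 0.13 on day 2, 0.20 for the difference between days and -0.15 for later minus earlier days.

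Of 50 called genes named, 26 kept the call with every library left out, 30 under every other alternative, and 50 kept their sign in all of these in which they were tested. With 2 libraries per group and day, single-day results have low precision, above all near 1 FPKM.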

Other observations

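Several other groups held members that were higher or lower in DAC at a limma adjusted p below 0.05 over both days without reaching the fold threshold, and no member of these lists was called over both days. On day 2 alone ANXA1 (1.14) and TERT (-1.30) were called. ANXA1, an anti-inflammatory annexin, held 23.3, 21.2, 28.8 and 27.6 FPKM in DAC and 11.5 to 13.9 FPKM in DMSO (0.91 over both days, adjusted p = 0.00995), in a list of 27 cytoskeleton and adhesion genes with a median of -0.13. MMP2, a matrix protease, held 12.4 to 21.7 FPKM in DAC and 5.67 to 11.7 FPKM in DMSO (0.91, adjusted p = 0.0364). The transcription factor JUN held 2.19 to 4.07 FPKM in DAC and 0.829 to 1.54 FPKM in DMSO (0.88), while FOSB overlapped between the groups. In all 4 DAC libraries these 3 genes lay above all 4 DMSO libraries.

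Heat shock and proteostasis genes had a median of -0.36 over 14 tested genes. HSP90AA1, a major chaperone, held 335 to 432 FPKM in DAC and 565 to 609 FPKM in DMSO (-0.57, adjusted p = 0.013). DNA repair genes had a median of -0.23, with 32 of 35 negative. TDP1, which removes protein adducts from DNA ends, held 31.0 to 37.5 FPKM in DAC and 43.4 to 48.7 FPKM in DMSO (-0.43). Among apoptosis genes (median -0.03 over 20), the BCL2-family gene BID was lower at -0.62, without overlap. TERT, the telomerase catalytic subunit, held 1.2 to 3.0 FPKM in DAC and 3.69 to 4.39 FPKM in DMSO (-0.97, adjusted p = 0.0251).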
